A study of Mus musculus with 7 samples.

Results

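The accessible sites around 9 integrin subunit genes were examined in regulatory T cells (Treg cells) that had lost the mitochondrial fusion protein Opa1. The assay was ATAC-seq, which maps open chromatin through the cuts a transposase makes in it. A site (peak) was taken when it touched Itgae, Itgb8, Itgal, Itga4, Itga6, Itgav, Itgb1, Itgb2 or Itgb7, or lay within 100 kb of one of them with no other protein-coding gene nearer. This gave 80 of the 50213 deposited peaks, 51 that touched a gene and 29 outside it, with no peak shared between members. The 80 peaks held between 0.130% and 0.144% of the counts in each of the 7 libraries.

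The cells came from the spleens of chimeric mice given CD45.1+ marrow mixed with an equal part of CD45.2+ marrow. In 4 mice the CD45.2+ marrow carried Foxp3Cre alone (wild type, WT). In 3 mice it carried Foxp3Cre and the floxed Opa1fl/fl alleles, so that Opa1 is removed where the Foxp3 gene drives Cre (Opa1 KO, here KO). Both groups therefore carried Foxp3Cre, and in both the CD45.1+ cells of the same mouse kept normal Opa1. CD45.2+ CD45.1- CD4+ Foxp3-YFP+ cells were sorted, and there were as many libraries as mice, 4 and 3. The sources used here state neither the ages nor the strain of the hosts.

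Integrins are adhesion receptors made of 1 alpha and 1 beta subunit. In Treg cells the alphaV-beta8 pair (Itgav, Itgb8) is known for releasing active TGF-beta from its latent complex, and the alphaE-beta7 pair (Itgae, which encodes CD103, and Itgb7) for binding E-cadherin on epithelial cells. LFA-1 (Itgal, Itgb2) binds ICAM proteins and steadies contact with other cells, the alpha4 subunit (Itga4) pairs with beta7 or beta1 to bind MAdCAM-1 or VCAM-1, and alpha6 (Itga6) pairs with beta1 (Itgb1) to bind laminin.

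Library totals in peaks ran from 1534394 to 3384325 counts, and KO replicate 1 was the deepest. The counts of WT replicates 2 and 3 agreed within sampling noise (chi-square p = 0.0843 over 36418 peaks, where each other pair within a genotype gave 0.000991 or less). They were counted as 1 sample in each mean, so every mean ± SD below has n = 3 per genotype, while the tests kept 7 libraries. Averaging leaves out the spread between these 2 libraries, so a WT SD can be narrower than that of the 4 libraries. The summed accessibility of 6 Treg marker genes (Foxp3, Il2ra, Ctla4, Ikzf2, Tnfrsf18, Lrrc32) was 1550 to 1652 CPM (counts per 1000000 counts in peaks, scaled with the libraries' normalization factors) in WT and 1570 to 1677 in KO. The 4 T cell genes Cd3e, Cd3g, Cd4 and Cd28 summed to 376 to 470 CPM over all libraries. Of 5 myeloid markers 3 had a peak (26.4 to 37.3 CPM), with none at Csf1r or Lyz2. Of 3 NK cell markers 2 did (195 to 232 CPM), with none at Ncr1. The 2 CD8 genes summed to 42.9 to 62.8 CPM, and 2 of 3 erythroid genes to 28.0 to 44.6 in WT and 40.5 to 56.0 in KO, with none at Hba-a1. These 2 erythroid genes went opposite ways. The log2 fold change, KO over WT, was 0.56 for Gata1 (adjusted p = 0.216) and -0.41 for Klf1 (adjusted p = 0.750). The sums of these marker genes span different numbers of peaks. Per kb of peak the levels were 58.8 CPM for the Treg and 49.1 for the T cell markers. The NK cell markers had 35.6, the erythroid 29.1, the CD8 19.2 and the myeloid 18.6. The part of cells other than Treg cells in the results below was not tested. The single Opa1 peak, at the gene's lower-coordinate end, had 35.4 ± 1.10 CPM in WT and 33.7 ± 6.65 in KO, and does not check the deletion, since the sources used here do not name the floxed exons.

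RefSeq promoter windows of the GRCm38.p6 build were at hand for 5 members, Itgav, Itgb8, Itgb7, Itga4 and Itgb1, and at each a deposited peak covered the annotated start and all 150 bases before it. Those bases are shown because the start-site peaks described below cover them. They run 5′ to 3′ along the gene's strand and end just before the start, with each CpG dinucleotide in capitals.
Itgav (chr2:83724247-83724396, plus strand): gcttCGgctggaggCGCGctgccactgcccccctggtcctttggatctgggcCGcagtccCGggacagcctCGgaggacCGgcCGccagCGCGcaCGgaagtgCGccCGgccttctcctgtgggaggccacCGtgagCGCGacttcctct
Itgb8 (chr12:119238277-119238426, minus strand): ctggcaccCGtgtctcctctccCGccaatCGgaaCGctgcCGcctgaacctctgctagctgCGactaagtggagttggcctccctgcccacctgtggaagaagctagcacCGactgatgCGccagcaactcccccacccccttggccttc
Itgb7 (chr15:102231936-102232085, minus strand): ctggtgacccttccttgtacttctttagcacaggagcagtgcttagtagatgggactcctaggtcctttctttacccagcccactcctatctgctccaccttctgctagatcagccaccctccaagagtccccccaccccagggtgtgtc
Itga4 (chr2:79255276-79255425, plus strand): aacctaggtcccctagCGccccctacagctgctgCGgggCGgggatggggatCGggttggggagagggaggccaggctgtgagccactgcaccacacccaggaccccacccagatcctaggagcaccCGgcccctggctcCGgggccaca
Itgb1 (chr8:128685504-128685653, plus strand): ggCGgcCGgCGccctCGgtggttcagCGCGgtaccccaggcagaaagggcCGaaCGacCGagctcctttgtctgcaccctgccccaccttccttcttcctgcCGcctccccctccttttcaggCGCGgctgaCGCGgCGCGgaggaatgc
The Itgav and Itgb1 stretches held 16 CpG each, Itgb8 held 8, Itga4 held 6 and Itgb7 held 0, against a median of 4 over 32851 promoters of the same length. The GC content was 72.7% for Itgav, 70.7% for Itga4, 70.0% for Itgb1, 64.0% for Itgb8 and 55.3% for Itgb7, with a median of 54.0% over those promoters. The start-site peaks were 755 bp wide at Itgav, 879 bp at Itgb8, 908 bp at Itga4 and 527 bp at Itgb1, and 292 bp at Itgb7, whose stretch held no CpG. At Itgav and Itgb7 the start-site peak lay inside the gene, 1551 and 1307 bp from its nearest end. A set of 6 short motifs was searched on both strands, and no matches overlapped in these stretches. Itga4 held 1 match to the RUNX letters TGTGGT (in 8.40% of all promoters) and 1 to the SP/KLF letters GGGCGG (28.6%). Itgb1 held 1 match to the cyclic AMP response element core TGACG (13.3%). None of the 5 held the ETS letters CCGGAA (9.23%), the AP-1 letters TGANTCA (4.24%) or the TATA letters TATAAA (7.57%).

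No integrin peak and no integrin gene passed the test for a change with Opa1 loss. Of the 80 peaks, 63 passed the filter on low counts, and 0 of these 63 were called (adjusted p under 0.05, quasi-likelihood test of edgeR) in a fit of all 38041 tested peaks, where 0.0867% were. DESeq2 and limma-voom also called 0 members, though DESeq2 gave an adjusted p for only 33 of the 80 peaks. An unadjusted p under 0.05 was reached by 3 of the 63, 1 higher and 2 lower in KO, which is 4.76% against 9.46% of all tested peaks. WT and KO libraries were fully apart at 6 of the 63 (9.52%), 4 higher and 2 lower in KO, against 9.32% of all tested peaks (4.84% higher, 4.47% lower). Fold changes were below 0 at 38 and above 0 at 25 of the 63, with a median log2 fold change (KO over WT, shortened to log2 change below) of -0.06, against 50.3% below 0, 49.7% above 0 and a median of -0.0024 over all tested peaks. A size above 0.5 on the log2 scale was seen at 5 of the 63 (7.94%), against 18.2% of all tested peaks. The integrin peaks were somewhat more abundant (median log2 CPM 4.04 against 3.85) and had slightly smaller standard errors (median 0.29 against 0.31). With counts summed over all peaks of a gene, 0 of the 9 members were called among 13290 genes, where 0.346% were, and 2 of 9 had an unadjusted p under 0.05 (22.2%, against 11.4% of all tested genes, 5.36% higher and 6.02% lower). Those were Itgav and Itgb1, both lower in KO. Of the 9 sums 5 were below 0 and 4 above 0, against 50.1% and 49.9% of all tested genes. The groups did not overlap at 1 of 9, Itgb1, against 9.74% of all tested genes (5.08% higher, 4.66% lower). The plot of fold changes sets the 63 peaks beside all tested peaks.

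**Figure D1:**
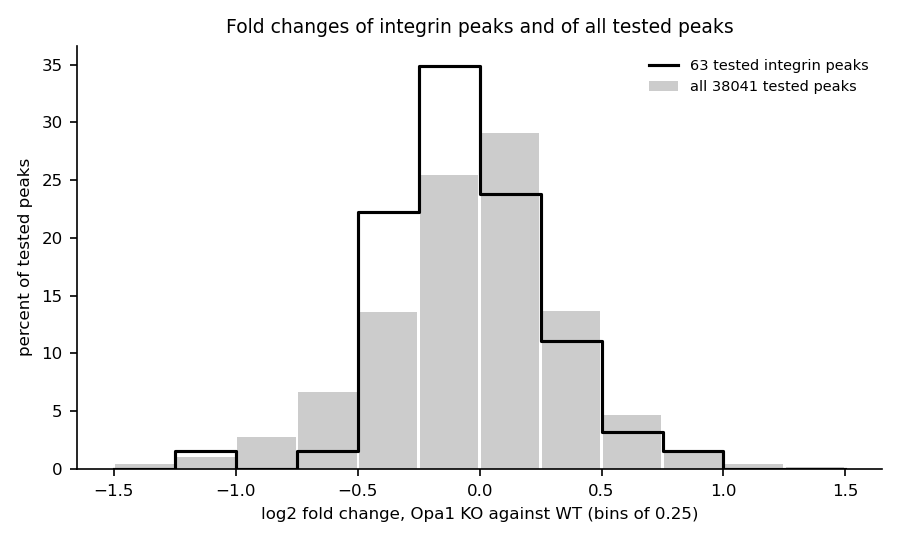
Percent of tested peaks (vertical axis) in each bin of 0.25 in the log2 change of KO against WT (horizontal axis), for 63 integrin peaks (black line) and all 38041 tested peaks (grey bars). The bin from -0.25 to 0 held 34.9% of the integrin peaks and 25.4% of all tested peaks, and no integrin peak lay beyond -1.25 or 1.

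The alphaV gene Itgav (chromosome 2, 83722303 to 83806917) had the member peak with the smallest p. This peak, from 83700621 to 83701356, lay 20947 bp below the gene's lower end, which for this plus-strand gene is upstream. It had 99.8, 105, 102 and 79.1 CPM in WT replicates 1 to 4 and 76.1, 79.2 and 60.2 in KO replicates 1 to 3. KO replicates 1 and 2 were level with WT replicate 4, so the groups just overlapped, and KO replicate 3 was below all others. The means were 94.1 ± 13.1 in WT and 71.8 ± 10.2 in KO, a log2 change of -0.42 (SE 0.13, unadjusted p = 0.00145, adjusted p = 0.228). The direction held in 17 of 17 alternatives (log2 change -0.52 to -0.31, adjusted p from 0.113 to 0.647). These refit the same libraries at a peak picked for its small p, so they are not independent support.

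A second upstream Itgav peak, from 83695253 to 83695849, had 86.7, 42.2, 45.5 and 68.5 CPM in WT and 50.9, 60.3 and 48.8 in KO. The WT libraries spread widely at this site and enclosed the KO values (log2 change -0.22, SE 0.16, adjusted p = 0.725). The peak over the annotated Itgav start, from 83723854 to 83724609, had 74.6, 75.3, 61.3 and 72.0 CPM in WT and 70.5, 95.6 and 78.9 in KO. Its mean was higher in KO, unlike at these 2 upstream sites, without passing the test (71.6 ± 3.18 against 81.7 ± 12.8, log2 change 0.19, SE 0.13, adjusted p = 0.702). The remaining, smaller upstream peak, from 83709816 to 83710315, had 10.3, 7.79, 8.17 and 8.12 CPM in WT and 7.40, 15.8 and 9.34 in KO, overlapping (log2 change 0.28, SE 0.37, adjusted p = 0.873). The 3 upstream peaks together carried 57.0% of the Itgav CPM, with 197, 155, 155 and 156 CPM in WT and 134, 155 and 118 in KO. The 6 peaks touching the gene had 127, 116, 94.5 and 122 CPM in WT and 113, 124 and 109 in KO. Summed over the 9 peaks, Itgav had 324, 271, 250 and 278 CPM in WT and 248, 280 and 227 in KO, so that KO replicate 2 exceeded 3 of the WT libraries. The log2 change of the sum was -0.17 (SE 0.08, 95% interval -0.33 to -0.02, unadjusted p = 0.0260, adjusted p = 0.352). With only the peaks that touch the gene it was -0.02 (adjusted p = 0.978), with peaks within 20 kb it was 0.01, and without WT replicate 1 it was -0.09.

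Its partner Itgb8 (chromosome 12, 119162803 to 119238276, minus strand) had 14 peaks, of which 8 were tested. Accessibility concentrated at the peak over the start, from 119238119 to 119238998, and at a broad peak inside the gene, from 119204129 to 119205109. The start peak had 75.5, 83.1, 87.5 and 80.1 CPM in WT and 88.8, 80.4 and 73.2 in KO, with means of 80.3 ± 4.88 and 80.8 ± 7.85. The groups covered the same range, and the 95% interval of the log2 difference was -0.27 to 0.27. The broad peak had 92.8, 59.1, 72.3 and 91.3 CPM in WT and 82.6, 68.2 and 66.4 in KO (log2 change -0.12, SE 0.13, adjusted p = 0.844). A small peak inside the gene, from 119212065 to 119212313, had the smallest p of this locus. It had 4.66, 11.7, 10.5 and 9.13 CPM in WT and 4.74, 4.87 and 3.11 in KO. WT replicate 1 lay among the KO values while the other 3 WT libraries were higher (log2 change -1.04, SE 0.45, unadjusted p = 0.0241, adjusted p = 0.447). It passed the count filter in 10 of 17 alternatives. Summed over its 14 peaks Itgb8 had 283, 262, 292 and 274 CPM in WT and 255, 270 and 236 in KO. The sum was lower in KO by means (278 ± 4.94 against 254 ± 17.2), but KO replicate 2 exceeded WT replicate 2 (log2 change -0.14, SE 0.08, 95% interval -0.29 to 0.01, adjusted p = 0.505). The averaged WT replicates 2 and 3 were the lowest and highest of WT, which narrows this SD.

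**Figure D2:**
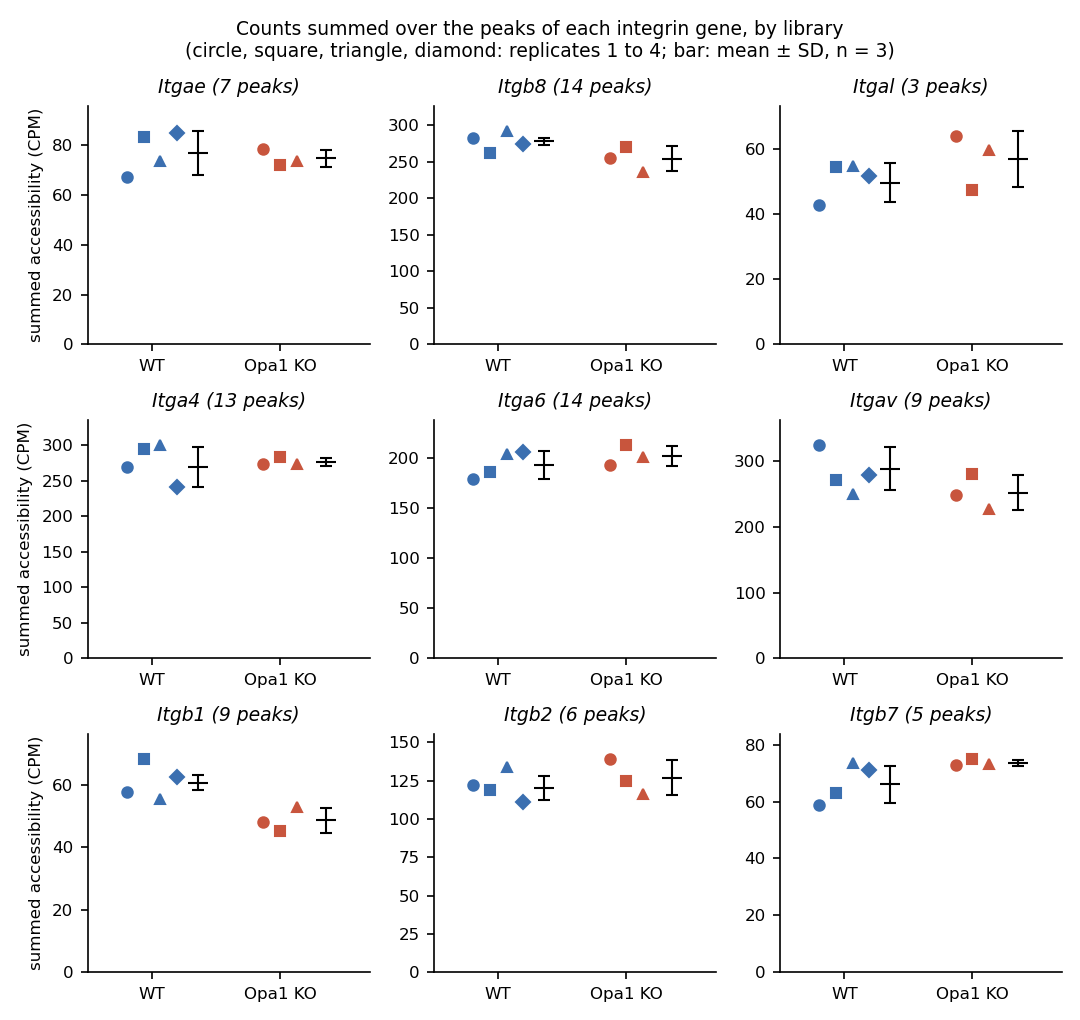
Accessibility summed over the peaks of each integrin gene (vertical axis, CPM, from 0) for WT (blue) and KO (red) libraries, with the symbol giving the replicate and the bar the mean ± SD (n = 3 per genotype, WT replicates 2 and 3 averaged). WT and KO overlap at 8 of 9 genes, and at Itgb1 the KO libraries (45.1 to 52.9) lie below the WT libraries (55.4 to 68.2). The groups are likewise apart, in either direction, at 9.74% of all tested genes.

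Itgae (chromosome 11, 73090505 to 73147449) had 7 peaks, all inside the gene, and none at either of its ends, where the nearest lay 3844 bp away. Its most accessible peak, from 73138158 to 73138537, also touches Haspin, a kinase gene nested in Itgae, and held 39.2% of the Itgae CPM. It had 28.0, 32.5, 26.8 and 31.4 CPM in WT and 27.2, 33.5 and 29.1 in KO, the same range in both genotypes (log2 change 0.00044, SE 0.21, 95% interval -0.42 to 0.42). The peak with the smallest p at this locus, from 73101377 to 73101669, had 6.53, 3.89, 3.50 and 3.04 CPM in WT and 7.11, 7.31 and 8.30 in KO. The 3 KO libraries were above the 4 WT libraries, by little over WT replicate 1 (log2 change 0.80, SE 0.47, adjusted p = 0.617). At another Itgae peak the groups were apart in the opposite direction. From 73095577 to 73095859 it had 7.46, 7.79, 9.33 and 7.61 CPM in WT and 5.33, 6.09 and 6.23 in KO (log2 change -0.46, SE 0.42, adjusted p = 0.792). The sum over the 7 peaks overlapped, at 67.1, 83.1, 73.5 and 84.7 CPM in WT and 78.5, 71.9 and 73.7 in KO (76.7 ± 8.89 against 74.7 ± 3.42, log2 change -0.04, SE 0.13, adjusted p = 0.958).

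Itgb7 (chromosome 15, 102215994 to 102233405, minus strand), whose product pairs with alphaE or alpha4, had 5 peaks, all tested. The narrow start peak, from 102231806 to 102232098, had 14.9, 11.7, 21.0 and 11.2 CPM in WT and 22.2, 17.1 and 13.5 in KO, and the groups overlapped (log2 change 0.29, SE 0.28, adjusted p = 0.811). A peak inside the gene, from 102230899 to 102231255 and 2150 bp from its nearest end, had the smallest p. Its values were 12.1, 14.9, 15.2 and 18.3 CPM in WT and 17.5, 22.5 and 23.9 in KO. Only WT replicate 4 reached the KO range (15.1 ± 3.07 against 21.3 ± 3.38, log2 change 0.47, SE 0.26, adjusted p = 0.586). The Itgb7 peak with the most counts, from 102225120 to 102225622, had 21.3 ± 5.58 CPM in WT and 21.8 ± 3.23 in KO. Summed, Itgb7 had 58.7, 63.0, 73.5 and 71.0 CPM in WT and 72.9, 74.9 and 73.2 in KO. The KO values sat at the top of the WT range, and the log2 change of 0.14 (SE 0.14, 95% interval -0.13 to 0.41) did not pass the test (adjusted p = 0.781).

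**Figure D3:**
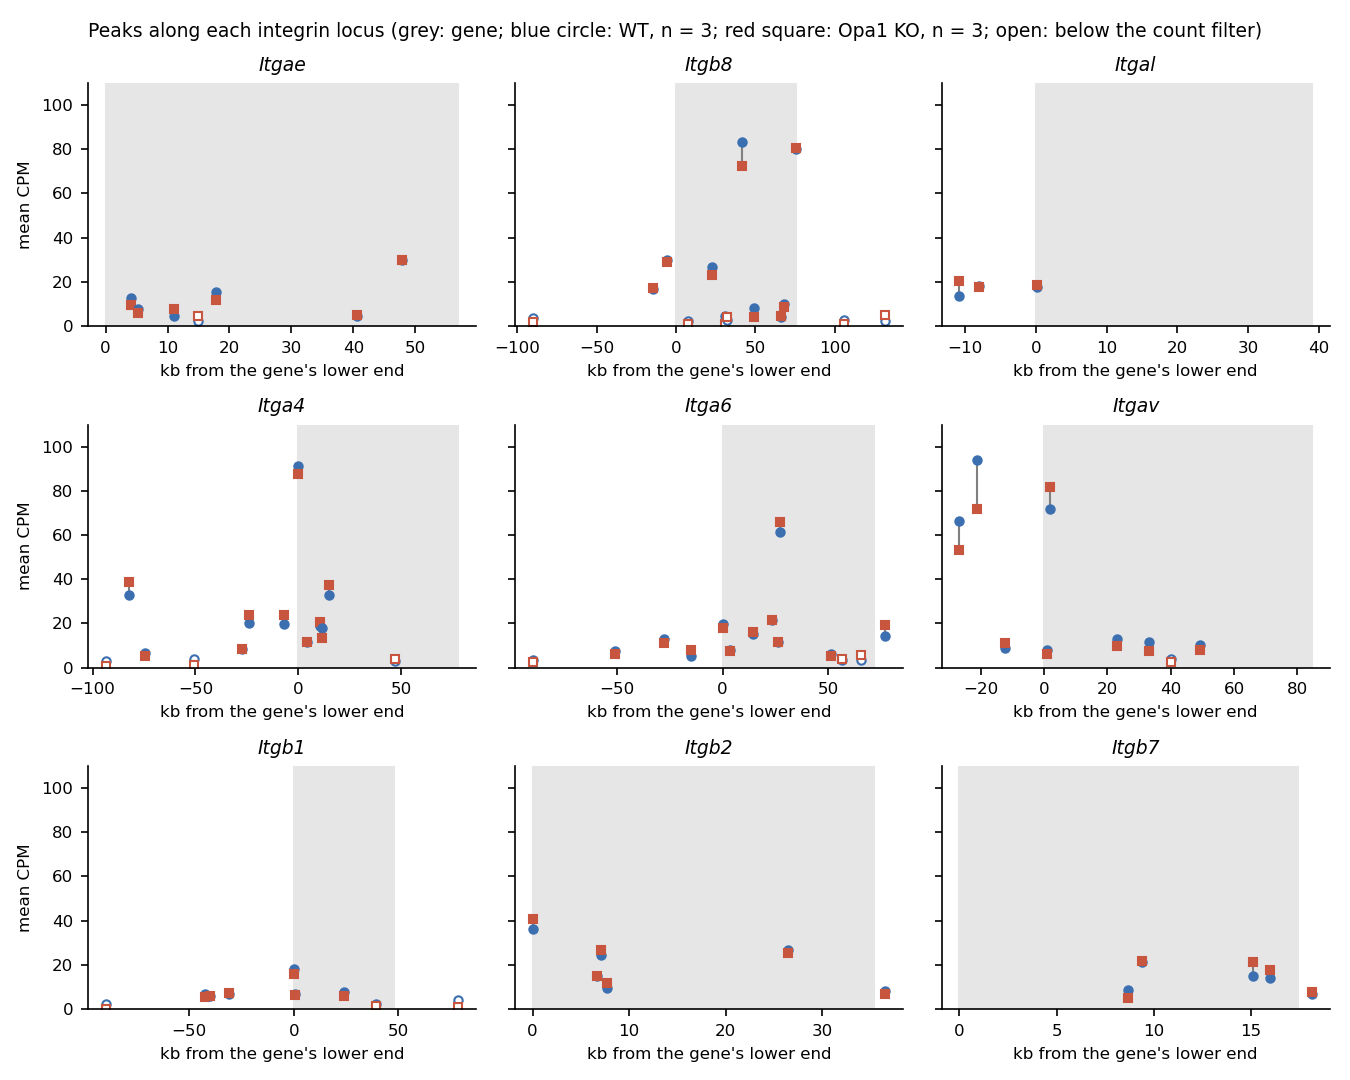
Mean CPM (vertical axis) of each of the 80 peaks against its distance in kb from the lower-coordinate end of its gene (horizontal axis, gene shaded), for WT (blue circles) and KO (red squares), n = 3 per genotype, with open symbols for the 17 peaks below the count filter. Itgav shows its tall peaks outside the gene as well as at its start, and its peak at 20947 bp has the widest gap between the genotypes (94.1 and 71.8 CPM).

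Itgal (chromosome 7, 127296139 to 127335137), the alpha chain of LFA-1, had 3 peaks, the fewest of the members. Of these, 1 covered its lower end and 2 lay outside the gene. The end peak, from 127296044 to 127296433, had 14.0, 29.9, 23.3 and 13.2 CPM in WT and 21.9, 19.5 and 14.5 in KO, with the KO libraries inside the WT range (log2 change -0.06, SE 0.27). The peak 10622 bp below it, from 127285190 to 127285517, had 14.0, 14.3, 11.7 and 14.2 CPM in WT and 19.5, 13.4 and 28.5 in KO. KO replicates 1 and 3 were above the WT libraries and KO replicate 2 was among them (13.7 ± 0.656 against 20.5 ± 7.62, log2 change 0.60, SE 0.28, unadjusted p = 0.0332, adjusted p = 0.483). Without KO replicate 3 its log2 change was 0.32. The Itgal sum was 42.9, 54.5, 54.8 and 51.7 CPM in WT and 64.0, 47.5 and 59.7 in KO, overlapping (log2 change 0.18, SE 0.16, 95% interval -0.13 to 0.49, adjusted p = 0.734). The sum's log2 change was 0.08 without KO replicate 1, 0.10 without WT replicate 1 and 0.28 without KO replicate 2, and -0.08 on the end peak alone.

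Itgb2 (chromosome 10, 77530329 to 77565708), the beta chain shared by the leukocyte integrins, had 6 peaks, all tested. The peak over its lower end, from 77530103 to 77530564, had 34.0, 46.1, 40.8 and 31.4 CPM in WT and 48.0, 37.8 and 36.8 in KO (log2 change 0.13, SE 0.18, adjusted p = 0.875). An inner peak, from 77537912 to 77538132, separated the groups by a narrow margin, with 10.3, 9.09, 10.5 and 8.12 CPM in WT and 10.7, 12.8 and 11.4 in KO (log2 change 0.28, SE 0.34, adjusted p = 0.859). The peak 986 bp above the upper end had 7.98 ± 1.18 CPM in WT and 7.04 ± 3.43 in KO. The Itgb2 sum was 120 ± 7.76 CPM in WT and 127 ± 11.4 in KO, and the libraries overlapped (log2 change 0.07, SE 0.11, 95% interval -0.14 to 0.28, adjusted p = 0.889).

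Itga4 (chromosome 2, 79255426 to 79333114, plus strand) had 13 peaks spread over the gene and the 100 kb before it. Its start peak, from 79254639 to 79255547, had 89.1, 105, 96.3 and 83.7 CPM in WT and 86.2, 98.1 and 78.4 in KO. The KO libraries ran through and slightly below the WT range (91.2 ± 8.70 against 87.5 ± 9.92, log2 change -0.10, SE 0.12, adjusted p = 0.866). At 2 further tested peaks the groups did not overlap, in opposite directions. Inside the gene, the peak from 79266556 to 79266846 had 17.7, 22.1, 18.7 and 15.2 CPM in WT and 15.1, 14.6 and 10.4 in KO (log2 change -0.44, SE 0.28, adjusted p = 0.653). Before the gene, at 6736 bp, the peak from 79248304 to 79248690 had 22.4, 16.9, 22.8 and 16.2 CPM in WT and 23.1, 23.8 and 24.9 in KO (log2 change 0.28, SE 0.24, adjusted p = 0.768). The sum over 13 peaks was 269, 294, 300 and 241 CPM in WT and 273, 283 and 273 in KO. Here the interval was narrow, from -0.15 to 0.15 around a log2 change of -0.0038 (SE 0.08, adjusted p = 0.995).

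Itga6 (chromosome 2, 71786886 to 71858427) had 14 peaks, and its tallest was inside the gene, from 71814044 to 71814417. That peak had 57.8, 70.1, 53.7 and 63.9 CPM in WT and 66.9, 70.7 and 60.2 in KO (61.2 ± 3.10 against 65.9 ± 5.30, log2 change 0.11, SE 0.14, adjusted p = 0.874). The peak over its lower end averaged 19.5 ± 2.77 CPM in WT against 17.7 ± 0.0677 in KO (log2 change -0.14, SE 0.26). A peak 5145 bp above the upper end, from 71863572 to 71863893, had 15.9, 15.6, 14.0 and 12.2 CPM in WT and 17.5, 19.5 and 20.8 in KO. The KO libraries were higher without overlap, short of the threshold (log2 change 0.41, SE 0.27, adjusted p = 0.673). The Itga6 sum was 193 ± 13.8 CPM in WT and 202 ± 9.94 in KO (log2 change 0.05, SE 0.09, 95% interval -0.12 to 0.22, adjusted p = 0.912).

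**Figure D4:**
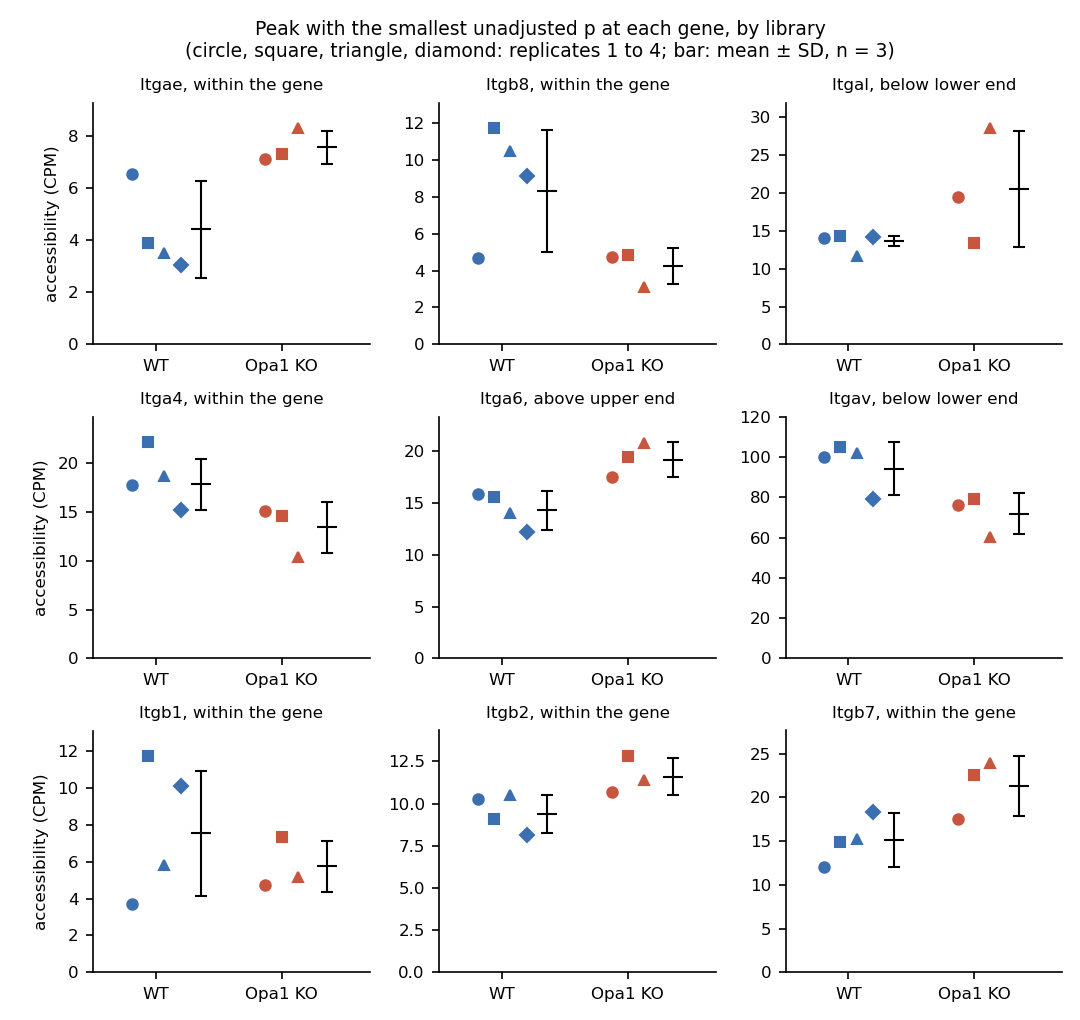
CPM (vertical axis, from 0) of the peak with the smallest unadjusted p at each of the 9 genes, by library, for WT (blue) and KO (red), with the symbol giving the replicate and the bar the mean ± SD (n = 3 per genotype). The groups do not overlap at the peaks of Itgae, Itga4, Itga6 and Itgb2, and picking each peak by its p favours such separation. Without that pick, 6 of the 63 tested integrin peaks (9.52%) and 9.32% of all tested peaks do not overlap. None of the 9 passed the test.

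Itgb1 (chromosome 8, 128685654 to 128733579, plus strand) encodes the common beta chain of alpha4 and alpha6. It was the 1 member of 9 (11.1%) whose accessibility, summed over all its peaks, separated the genotypes. Among all tested genes 9.74% did so, a similar share. Over 9 peaks it had 57.8, 68.2, 55.4 and 62.4 CPM in WT and 48.0, 45.1 and 52.9 in KO. The 3 KO libraries lay below the 4 WT libraries. The means were 60.7 ± 2.48 and 48.7 ± 3.98, a log2 change of -0.33 (SE 0.15, 95% interval -0.63 to -0.02, unadjusted p = 0.0353, adjusted p = 0.401). Here too averaging WT replicates 2 and 3, at opposite ends of WT, narrows the SD. Of its 9 peaks 8 had a mean under 10 CPM. Of its 6 tested peaks 5 were below 0 and 1 above 0, and none had an unadjusted p under 0.05. The start peak, from 128685432 to 128685959, had 24.7, 23.4, 16.3 and 10.1 CPM in WT, a wide spread that took in all 3 KO libraries (mean 15.7 ± 4.41; log2 change -0.23, SE 0.28, adjusted p = 0.859). Its log2 change was -0.05 when either WT replicate 1 or KO replicate 2 was left out, -0.12 when WT replicate 2 was, -0.39 when KO replicate 3 was and -0.45 when WT replicate 4 was. The tested peak with the smallest p, from 128709315 to 128709607, averaged 7.54 ± 3.38 CPM in WT against 5.75 ± 1.37 in KO (log2 change -0.46, SE 0.45, adjusted p = 0.812). The 3 peaks under the count filter were lower in KO too, for example 4.20, 2.60, 3.50 and 4.56 CPM in WT against 0.888, 0 and 2.08 in KO at the peak from 128764158 to 128764327. Summed over the 6 tested peaks only, Itgb1 had a log2 change of -0.20 (adjusted p = 0.731). The groups then overlapped, with KO replicate 3 above WT replicates 1 and 3, so the separation rested on the peaks under the filter.

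**Figure D5:**
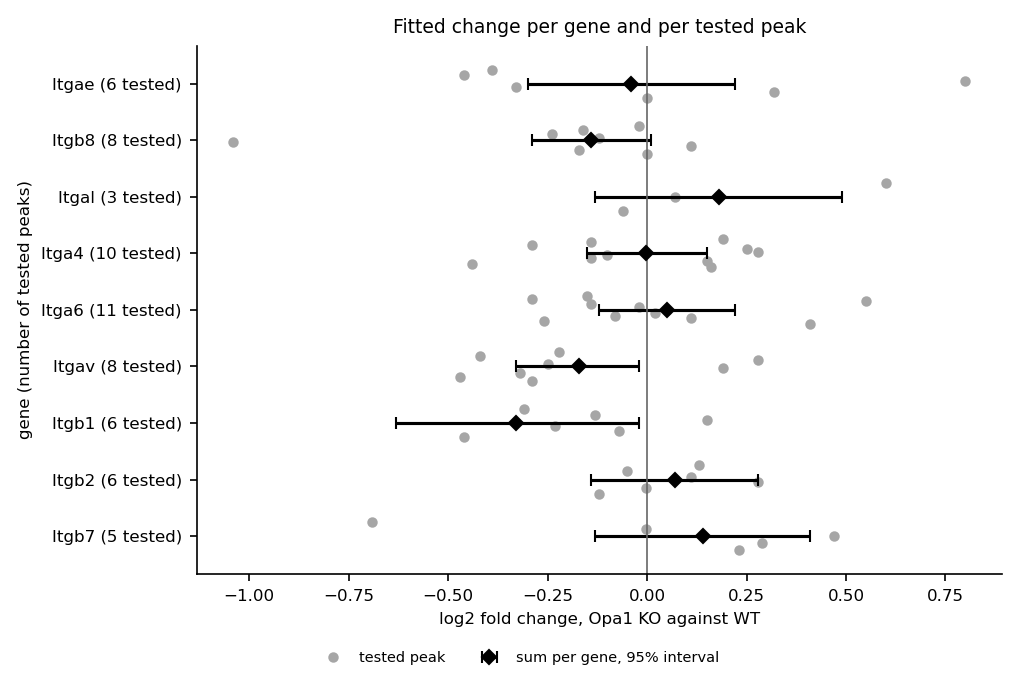
Log2 fold change of KO against WT (horizontal axis) for the sum over the peaks of each gene (black diamond with its 95% interval) and for each of its tested peaks (grey points), genes on the vertical axis. The intervals of Itgav (-0.33 to -0.02) and Itgb1 (-0.63 to -0.02) end just below 0 before adjustment, and those of the other 7 genes include 0.

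Levels were compared between the genes as CPM per kb of peak, a measure of accessibility and not of transcript. In order they were Itgav 65.6, Itgb2 60.3, Itga4 56.8, Itgb8 51.2, Itgal 49.3, Itgb7 43.9, Itga6 41.8, Itgae 32.5 and Itgb1 21.5 CPM per kb, as means of the 7 libraries. From Itgav down to Itga6 each gene's range over the libraries overlapped that of the next. Itgae (28.7 to 36.2) lay below Itga6 (38.0 to 45.1) in 7 of 7 libraries, and Itgb1 (17.4 to 26.3) below Itgae in 7 of 7. The 8 peaks over a gene end or annotated start held 25.8% of the integrin CPM, the 43 other peaks inside genes 43.6% and the 29 outside genes 30.6%. The median log2 change of the tested ones was -0.03, -0.08 and -0.02 in these 3 classes.

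The 17 integrin peaks under the count filter had mean counts of 2.57 to 9.14, and 7 of them had no count in at least 1 KO library while 2 had none in at least 1 WT library. The matching shares over all peaks under the filter were not determined, so these counts of zeros do not set the integrin peaks apart. In a fit without the filter 11 of the 17 were below 0 (64.7%) and 4 had an unadjusted p under 0.05 (23.5%), against 59.4% and 6.61% of all 12165 peaks under the filter, with no adjusted p under 0.491 among the 17. Near the 100 kb limit, the farthest peaks taken lay 93540 bp from Itga4 (3.10 ± 0.602 CPM in WT, 0.609 ± 1.05 in KO), 90324 bp from Itgb8 (3.77 ± 3.02 and 1.76 ± 1.65), 89866 bp from Itgb1 (2.50 ± 1.72 and 0.197 ± 0.342) and 89834 bp from Itga6 (3.40 ± 0.878 and 2.51 ± 2.17). The nearest left out lay 117128 bp from Itga4 (16.7 ± 1.36 and 14.2 ± 1.78 CPM) and 118678 bp from Itga6 (5.00 ± 1.34 and 8.44 ± 6.43).

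Across the 7 libraries, the genes whose summed log2 CPM followed Itgav most closely among 13289 were Ino80d (Pearson r = 0.973), Lrrc58 (0.968) and Hmgb3 (0.967). Those nearest to Itgb1 were Marveld2 (0.985), Tenm4 (0.984) and Ildr1 (0.982). These are descriptions over 7 libraries of shared depth and normalization, and 51 and 61 genes had an r above 0.9 with Itgav and Itgb1. Between genes whose products pair, r was 0.653 for Itgav and Itgb8, 0.303 for Itgal and Itgb2, 0.135 for Itgae and Itgb7, 0.00075 for Itga4 and Itgb7, -0.094 for Itga4 and Itgb1 and -0.464 for Itga6 and Itgb1. The highest r among the members was 0.880, for Itga6 and Itgb7, and the lowest was -0.892, for Itgal and Itgav.

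No called peak was found among the other genes of integrin function. Of 18 further integrin subunits 12 had tested peaks, 40 in all, with 24 above 0, a median log2 change of 0.10 and 3 of 40 at an unadjusted p under 0.05 (9.46% of all tested peaks reached this). The smallest p was inside Itgb3, the beta3 chain (8.09 ± 2.72 CPM in WT, 3.77 ± 3.21 in KO, log2 change -1.25, adjusted p = 0.393). Of 19 ligand genes 10 had 20 tested peaks, 4 above and 16 below 0, with a median of -0.36 and 3 of 20 at an unadjusted p under 0.05. Their smallest p was 2415 bp from Tgfb1, whose latent protein alphaV-beta8 binds. That peak (chromosome 7, 25707492 to 25708326) had 28.9, 22.1, 31.5 and 27.4 CPM in WT and 21.9, 16.4 and 17.6 in KO, apart by a narrow margin (log2 change -0.53, SE 0.23, adjusted p = 0.447). Of 4 carriers of latent TGF-beta, 3 had 13 tested peaks (median 0.03), 1 of them at an unadjusted p under 0.05. The smallest p lay inside Lrrc32, which encodes the Treg surface carrier GARP (chromosome 7, 98491737 to 98492050), with 18.7, 22.1, 21.0 and 24.3 CPM in WT and 14.2, 6.70 and 15.6 in KO, without overlap (log2 change -0.78, SE 0.28, adjusted p = 0.328). Of 23 genes of integrin activation 20 had 155 tested peaks, 79 above and 76 below 0, with a median of 0.01 and 18 of 155 at an unadjusted p under 0.05. Their smallest p was 13875 bp from Rap1a, a GTPase that switches integrins on (chromosome 3, 105815269 to 105815694). It had 71.8, 81.8, 67.1 and 63.9 CPM in WT and 94.8, 97.5 and 91.3 in KO, clear of overlap (70.1 ± 5.48 against 94.5 ± 3.07, log2 change 0.41, SE 0.12, unadjusted p = 0.00126, adjusted p = 0.217). Of 16 genes of adhesion signalling 15 had 93 tested peaks, 37 above and 56 below 0 (median -0.07), with 8 of 93 at an unadjusted p under 0.05. The smallest p there was inside Rsu1, a partner of the adaptor PINCH (30.7 ± 4.70 against 44.9 ± 10.1 CPM, log2 change 0.52, adjusted p = 0.335). Counts summed per gene gave 0 calls in each of these 5 lists.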

How the data were processed

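ATAC-seq libraries of sorted Treg cells, 4 WT and 3 Opa1 KO, were compared. The authors deposited 1 table of raw counts per peak, not normalized, per the file headers. Per the submitters' processing notes the build was mm10 and the tools were bedtools 2.25.0, MACS2 2.1.1, SAMtools 1.9, Picard 2.9.4, BWA 0.7.16 and Trimmomatic 0.36. The sources used here give neither their settings nor the merging of peaks nor any shift of reads for the transposase offset, which can move peak edges. Positions are printed as deposited, since no source says if they begin at 0 or 1, and widths are end minus start. Between 78.0% and 86.3% of counts per library were even, as counting both mates of a pair gives, so counts overstate fragments. Without molecular identifiers, PCR copies cannot be told from separate molecules.

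Peaks were assigned to protein-coding genes of RefSeq GRCm38.p6: each gene touched, or otherwise the nearest gene end within 100 kb. A near gene need not be the one a site regulates. The gene table gives no strand or exons, so these are named only where a promoter window does. The test was edgeR 4.0.16 (quasi-likelihood, robust; filterByExpr with minimum count 10 and total 15; TMM) in R 4.3.3 on 7 libraries with genotype as the only term, with Benjamini-Hochberg adjustment over all 38041 peaks, or over all 13290 genes for counts summed per gene. Every adjusted p is from edgeR unless another tool is named, and 95% intervals are from the same fit, unadjusted for the number of tests. CPM values for genes use the peak table's totals and TMM factors. Alternatives used DESeq2 1.42.0 and limma 3.58.1, other scalings, filters and left-out libraries. Tables and plots used Python 3.11.15, pandas 2.3.3, NumPy 2.4.6 and matplotlib 3.10.9. Simulated data with known changes were used to check the fit. Among simulated peaks, 17.9% of 1.5-fold, 41.8% of 2-fold and 80.3% of 4-fold changes were called. For counts summed per gene these shares were 65.7%, 82.1% and 100%. Changes of the smaller sizes at single peaks can therefore go uncalled.

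The members and lists were chosen with earlier results of these data known. The peaks named were, at each gene, the tested peak with the most counts, that with the smallest p and that over the RefSeq start, or within 1 kb of a gene end where no start was at hand. In each list the peak with the smallest p was named. The 2 other upstream Itgav peaks, the broad Itgb8 peak, the Itgb1 peak under the filter and the non-overlapping Itgae and Itga4 peaks with larger p were chosen after their values were seen, as was the marking of CpG. The levels of 1 marker list are not reported here.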

Additional observations from a re-analysis of the deposited data

Results flagged for a closer look

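The Itgal peak from 127285190 to 127285517 had 1 WT library apart from the others. WT replicate 3 had 11.7 CPM, while the nearest WT value was 14.0 and the other end of the WT range 14.3, so its gap was 0.888 of the range. It was 1 of 30 sets of 4 WT libraries examined, and chance flags about 1 in 20.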

How the results depend on the processing

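No member peak and no member gene was called under any of the 17 and 20 alternatives, and the median log2 fold change of the tested integrin peaks stayed between -0.077 and -0.051 under 3 other scalings. The background moved. Over all peaks, 33 calls became 60 with a minimum mean count of 20, 57 with DESeq2, 55 with limma-voom, 79 with counts halved and 17 with the replicate number as a block, and 15 to 43 with 1 library left out (15 without KO replicate 1, 16 without KO replicate 3, 17 without WT replicate 1). Over all genes, 46 calls became 16 with DESeq2, 82 with counts halved and 28 with the replicate block, and 8 to 67 with 1 library left out (8 without KO replicate 3, 12 without KO replicate 1, 24 without WT replicate 1, 30 without WT replicate 3, 27 without WT replicate 4). The cause was not tested. The block used replicates 1 to 3 only. Deviations of same-numbered WT and KO libraries had correlations of -0.0119 to 0.0106, inside the range of differently numbered pairs (-0.0383 to 0.0285). Most of the difference between libraries of a genotype was counting noise, which can hide a deviation they share. These correlations therefore cannot decide whether same-numbered libraries share a batch.

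Values near 0 changed sign. On summed counts, Itga4 was 0.00062 without a filter, 0.0033 with limma-voom, 0.02 with WT replicates 2 and 3 summed and 0.01 with only peaks past the filter, Itgae was 0.01 with the replicate block, Itgal was -0.08 with only peaks that touch the gene and Itgav 0.01 with peaks within 20 kb. Without 1 library the ranges were -0.07 to 0.04 for Itga4, -0.11 to 0.01 for Itgae and -0.02 to 0.13 for Itgb2. The Itgae peak from 73138158 was -0.0019 with DESeq2 size factors, -0.02 with library totals, a mean count of at least 20 or limma-voom, -0.03 with loess offsets or counts halved and -0.00068 with WT replicates 2 and 3 summed. The Itgb8 start peak from 119238119 was 0.02 without a filter or with limma-voom, 0.01 with DESeq2 or WT replicates 2 and 3 summed and 0.0034 with counts halved. The Itgal peak from 127296044 was 0.06 with limma-voom and 0.03 with WT replicates 2 and 3 summed. The Itgb7 peak from 102225120 was 0.02 without a filter, with limma-voom or with WT replicates 2 and 3 summed, 0.01 with DESeq2 and 0.11 with the replicate block. Without 1 library these ranged from -0.07 to 0.08 (Itgae 73138158), -0.08 to 0.07 (Itgb8 119238119), -0.22 to 0.18 (Itgal 127296044) and -0.16 to 0.11 (Itgb7 102225120), as did the Itgb2 peaks from 77530103 (-0.01 to 0.23) and 77566694 (-0.45 to 0.21).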
